A study of Mus musculus with 6 samples.

Results

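The genes described here drive and mark cell division: replication, mitosis and cyclin genes, 34 of the 24404 gene symbols in a table of raw read counts. They were chosen by symbol from a list of such genes, and all 34 were found in the table. The rule held no measured value, but the list was chosen with earlier results of these data known. RNA came from mouse hearts 5 weeks after transaortic constriction, in which the narrowed aorta loads the left ventricle with pressure. The WT-TAC group, of genotype WT, and the KO-TAC group, of genotype miR-204-/-, had 3 libraries each, and both groups had the surgery, so every difference is between genotypes in the loaded heart. An unoperated group was not analysed here, and the sources used here do not give the strain, sex or age of the mice or how the allele was made.

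A dividing cell passes from G1, when D-type and E-type cyclins with their kinases release E2F factors, into S phase, when the MCM helicase opens DNA at licensed origins, and then through G2 into mitosis under Cdk1 with A-type and B-type cyclins. Transcripts of the replication genes peak around the entry into S phase and those of the mitotic genes in G2 and M, so in a tissue they follow the number of cells in cycle. Adult heart muscle cells rarely divide, and after pressure load most dividing cells of the heart are fibroblasts, endothelial cells and macrophages. D-type cyclins and Cdk4 are also expressed outside the cycle. In RNA of whole hearts, fewer cycling cells and less RNA per cycling cell cannot be told apart.

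The microRNA that the KO-TAC mice lack is shown because a transcript it represses directly may carry a match to its seed. Only matches to the whole seed, in the longest annotated 3' UTR of a gene, were searched for. The seed, bases 2 to 8, is in capitals, and the mature sequence is RefSeq's at chr19:22750610-22750631 (GRCm38.p6, plus strand).
miR-204-5p: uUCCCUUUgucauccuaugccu

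The match to that seed, AAAGGGA, occurs in the longest annotated 3' UTR of 5 of the 34 members, or 14.7%, and in 2112 of 11692 tested genes with a 3' UTR, or 18.1%. The 5 sites are shown with 8 bases on each side and the match in capitals, on the strand of the gene (GRCm38, GENCODE M21). They lie at chr5:3525522-3525528 for Cdk6, chr2:154559899-154559905 for E2f1, chr1:128333398-128333404 for Mcm6, chr10:69337650-69337656 for Cdk1 and chr4:52487100-52487106 for Smc2.
Cdk6: accatgatAAAGGGAtcatgtgc
E2f1: ttattgggAAAGGGAgagggaga
Mcm6: attaaccgAAAGGGAaggacttt
Cdk1: tagcagtcAAAGGGAtgcctgag
Smc2: ggaccattAAAGGGAacacatag

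Of these members, the log2 fold changes of KO-TAC over WT-TAC were −0.14 ± 0.34 (SE) for Cdk6, a kinase of G1, 0.12 ± 0.28 for Mcm6 and −0.69 ± 0.35 for Smc2. E2f1, with 23 counts in each genotype, and Cdk1, with 26 in WT-TAC and 22 in KO-TAC, were too low to be tested. None of the 5 was called different.

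No member was called different between the genotypes. Of the 34 members 27 passed edgeR's filter on low counts, and 0 of them had a Benjamini-Hochberg adjusted p under 0.05 in its quasi-likelihood test, against 3 of all 12487 tested genes (0.024%). The lowest adjusted p of a member was 0.999. At an unadjusted p under 0.05 there were also 0 members, against 2.93% of all tested genes, and DESeq2 and limma-voom called 0 members as well. Log2 fold changes ran from −0.85 for Rrm2 to 1.70 for Cdc20, with 16 members lower in KO-TAC and 11 higher and a median of −0.11, beside a median of 0.0012 and 49.8% lower over all tested genes. The column of KO-TAC replicate 3 carries in the table a sample number that belongs to WT-TAC replicate 3, and it was assigned by its library index. Without that library 12 of 27 members were lower and the median was 0.067.

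Precision differed widely between members. A 95% interval that lay within a 2-fold change in either direction was reached for 12 of the 27 tested members and within a 4-fold change for 22, so for those 12 a difference as large as 2-fold lay outside the interval. Ccnd3, a D-type cyclin, had the narrow interval of 0.629 to 1.19 in fold, whereas that of Cdc20, the activator of the anaphase-promoting complex, ran from 0.648 to 16.2. The median biological coefficient of variation of the tested members was 0.319, against 0.255 over all tested genes. For all 34 members the highest library over the lowest within a genotype was a larger ratio than that of the genotype means, which also held for 96.4% of all tested genes.

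**Figure D1:**
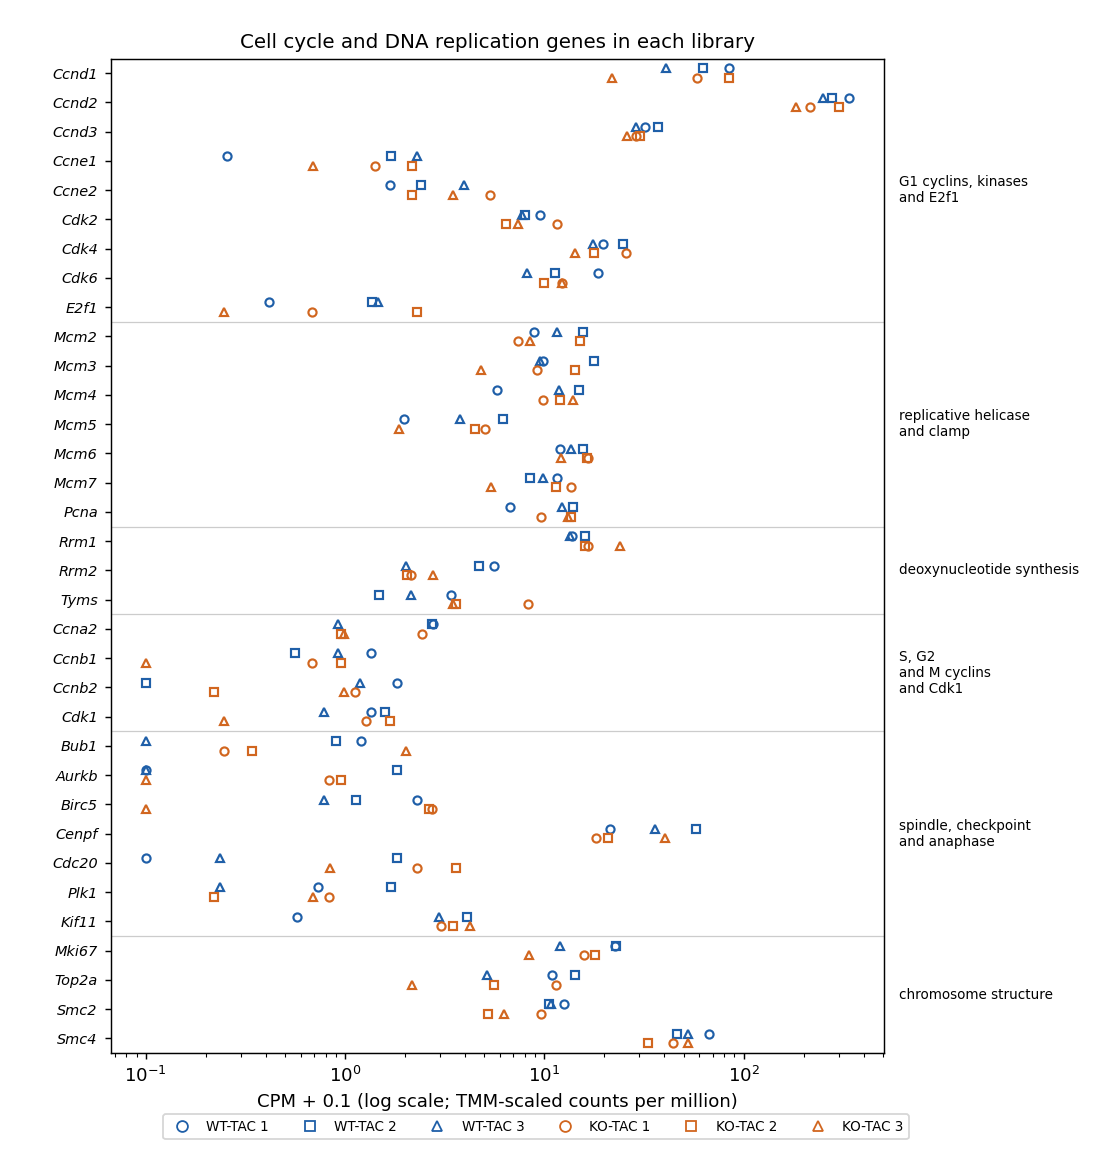
Level of each member in each library as TMM-scaled CPM plus 0.1 on a log axis, grouped by role, with WT-TAC in blue, KO-TAC in orange and a symbol per replicate; points at 0.1 are libraries with a count of 0. Colours intermix in nearly every row, with Ccnd2 highest at 182 to 337 CPM and the B-type cyclins, Bub1, Aurkb and Plk1 below 2 CPM in every library.

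The libraries held 6411538 to 8571737 counts, and members took 0.0459% to 0.0720% of them. Mir204 had a count of 0 in all 6 libraries, wild type included, so the deletion could not be checked. In CPM, counts per 1000000 of the TMM-scaled library total, cardiomyocyte markers summed to 78370 to 90693 in WT-TAC and 72166 to 101703 in KO-TAC. Fibroblast markers spanned 1217 to 2331 CPM in WT-TAC and 954 to 1957 in KO-TAC, and macrophage markers 191 to 235 and 160 to 283. Blood endothelial markers, with 7 of 8 tested genes higher in KO-TAC, had 1790 to 2168 CPM in WT-TAC and 2029 to 2870 in KO-TAC. T and NK cell markers reached at most 3.33 CPM and B cell markers at most 7.55 in any library. Smooth muscle markers, with 6 of 6 tested genes lower in KO-TAC, had 307 to 454 CPM in WT-TAC and 160 to 335 in KO-TAC. Pericyte markers had 651 to 755 and 742 to 840 CPM, and the mesothelial markers, also 6 of 6 lower, 21.9 to 87.1 and 16.3 to 53.3. Neutrophil markers had 2.33 to 28.8 and 4.43 to 13.6 CPM with Mpo at 0, and erythroid markers 44.6 to 78.2 and 26.7 to 56.5 with Hba-a1, Hba-a2, Hbb-bs and Hbb-bt at 0 in every library. KO-TAC replicate 3 had the lowest fibroblast, macrophage and smooth muscle sums and the highest endothelial sum. It also had the lowest level of 14 of 34 members, 1 of them tied with other libraries, and of 20.3% of all tested genes. The part of these cell types in the members' values was not tested.

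The D-type cyclins couple growth signals to Cdk4 and Cdk6, and Ccnd2 and Ccnd1 were the members with the highest counts. Ccnd2 (chr6:127125162-127152193, minus strand) had 2144, 2428 and 1819 counts in WT-TAC replicates 1 to 3 and 1466, 2466 and 1234 in KO-TAC, which is 288 ± 44.9 and 232 ± 60.6 CPM (SD, n = 3). KO-TAC replicate 2 lay above 2 of the WT-TAC libraries and the other KO-TAC libraries below all of WT-TAC, and the log2 fold change was −0.31 ± 0.22 (edgeR adjusted p = 0.999). Ccnd1 had 534, 542 and 296 counts in WT-TAC and 401, 694 and 148 in KO-TAC. In Ccnd1 the spread within KO-TAC, 3.86-fold from highest to lowest, was the wider, and its log2 fold change of −0.18 ± 0.46 became 0.20 when KO-TAC replicate 3 was left out and 0.090 when WT-TAC replicate 1 was. Ccnd3 was even across libraries, at 28.9 to 37.1 CPM in WT-TAC and 25.9 to 30.1 in KO-TAC. Per kilobase of annotated exon, Ccnd2 stood at 30.6 ± 4.77 CPM in WT-TAC, Ccnd1 at 13.2 ± 4.61 and Ccnd3 at 3.71 ± 0.472, and in KO-TAC the order was the same.

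Of the kinases that D-type cyclins activate, Cdk4 had 125, 216 and 127 counts in WT-TAC and 176, 145 and 96 in KO-TAC, and Cdk6 had 117, 98 and 59 against 83, 81 and 82. Both sets of libraries overlapped, and the 95% intervals of the fold change were 0.609 to 1.42 for Cdk4 and 0.543 to 1.51 for Cdk6. Cdk2, the partner of E-type and A-type cyclins, had means of 8.34 ± 0.957 and 8.37 ± 2.79 CPM. About 19.7% of the exonic bases of Cdk4 overlap Tspan31 on the opposite strand, as do 23.4% of those of Ccnd1 with LTO1, 17.4% of Ccne2 with Ints8, 12.5% of Ccna2 with Exosc9, 7.25% of Mcm7 with Ap4m1 and 7.09% of Plk1 with Gm44985. The protocols name a plain and a stranded kit, without saying which library had which, so reads there cannot be told apart.

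The E-type cyclins and E2f1, which act at the step into S phase, were far lower. Ccne1 had 1, 14 and 16 counts in WT-TAC and 9, 17 and 4 in KO-TAC, and Ccne2 had 10, 20 and 28 against 36, 17 and 23. E2f1, a transcription factor that switches on replication genes, had 2, 11 and 10 counts against 4, 18 and 1. WT-TAC replicate 1 was the lowest WT-TAC library for all of these genes, and KO-TAC replicate 3 was lowest of KO-TAC for Ccne1 and E2f1. The interval of the Ccne1 fold change, 0.290 to 3.45, allows a change past 3-fold in either direction.

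The replicative helicase showed similar means in both genotypes. Mcm2 to Mcm7 encode the 6 subunits of the MCM ring that unwinds DNA, and Pcna the clamp that holds the polymerases on it. Their summed counts were 357, 800 and 525 in WT-TAC and 484, 712 and 400 in KO-TAC, or 56.2, 91.8 and 71.9 CPM against 70.7, 86.5 and 59.1. WT-TAC replicate 1 and KO-TAC replicate 3 were the low libraries and replicate 2 the high one in each genotype, and the genotypes overlapped. Mcm6 was the steadiest subunit, with 76, 135 and 99 counts against 113, 134 and 81, a log2 fold change of 0.12 ± 0.28 and a 95% interval of 0.718 to 1.66 in fold. The other subunits and the clamp had log2 fold changes from −0.40 ± 0.41 for Mcm3 to 0.13 ± 0.37 for Mcm4, with 4 of the 7 genes higher in KO-TAC and 3 lower.

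Within the ring the subunits were not equal in transcript level. Per kilobase of exon and averaged over WT-TAC, Mcm3 had 3.28 ± 1.24 CPM, Mcm4 2.99 ± 1.30, Mcm6 2.93 ± 0.380, Mcm7 2.23 ± 0.352, Mcm2 1.72 ± 0.484 and Mcm5 0.974 ± 0.527. The ranges over libraries of all neighbours in that order overlapped, and Mcm5 was last in both genotypes, at 0.928 ± 0.426 in KO-TAC. Exon lengths are unions over all annotated transcripts, so retained introns lengthen some of them. Mcm7 and Pcna have processed copies elsewhere in the genome, 97.7% and 99.2% identical over 2157 and 781 bases, and the counting of reads shared with them is not stated in these sources.

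The promoters of these genes are shown because members of a group share a motif there. Promoters here are RefSeq's windows from 250 bases before to 50 after a gene's start (GRCm38.p6), and 27 of 34 members matched. A gene with several starts counts as holding a motif if any of them does. An E2F motif, TTTCCCGC, TTTCGCGC, TTTGCCGC or TTTGGCGC on either strand, was found in 4 of the 6 matched helicase and clamp genes, 1 of the 3 matched genes of the group of S, G2 and M cyclins with Cdk1, 1 of the 6 matched G1 genes and 0 of the other 12 members, against 2.60% of all 27025 genes with such a promoter. The motif is in capitals, in its own or the reverse orientation, on the gene's strand. The windows lie at chr1:20820275-20820304 for Mcm3, chr8:75109345-75109374 for Mcm5, chr1:128359734-128359763 for Mcm6 and chr5:138171849-138171878 for Mcm7, and the Mcm5 match overlaps another on the other strand.
Mcm3: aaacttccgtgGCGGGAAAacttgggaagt
Mcm5: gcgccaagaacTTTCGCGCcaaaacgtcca
Mcm6: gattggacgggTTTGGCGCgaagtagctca
Mcm7: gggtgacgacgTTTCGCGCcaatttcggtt

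Enzymes that make deoxynucleotides gave the member with the smallest p among those higher in KO-TAC. Tyms (chr5:30058202-30073617, minus strand), thymidylate synthase, had 21, 12 and 15 counts in WT-TAC and 56, 29 and 23 in KO-TAC. Each KO-TAC library lay above each WT-TAC library, at 3.40 to 8.18 against 1.38 to 3.30 CPM, and the gap between the nearest ones was narrow. The log2 fold change was 1.17 ± 0.60, with an unadjusted p of 0.0732 and an adjusted p of 0.999 in edgeR. It was the 1 tested member with all KO-TAC libraries higher, a pattern that 4.26% of all tested genes had, and its longest transcript shares stretches at up to 97.7% identity with transcripts of many other genes. Rrm1 and Rrm2, the subunits of ribonucleotide reductase, went opposite ways, with log2 fold changes of 0.39 ± 0.27 and −0.85 ± 0.61. Rrm2, whose level depends on S phase, had 35, 40 and 14 counts in WT-TAC and 14, 16 and 18 in KO-TAC, with WT-TAC replicate 3 the lowest of all in CPM, whereas Rrm1 had 87, 139 and 97 against 113, 131 and 162.

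**Figure D2:**
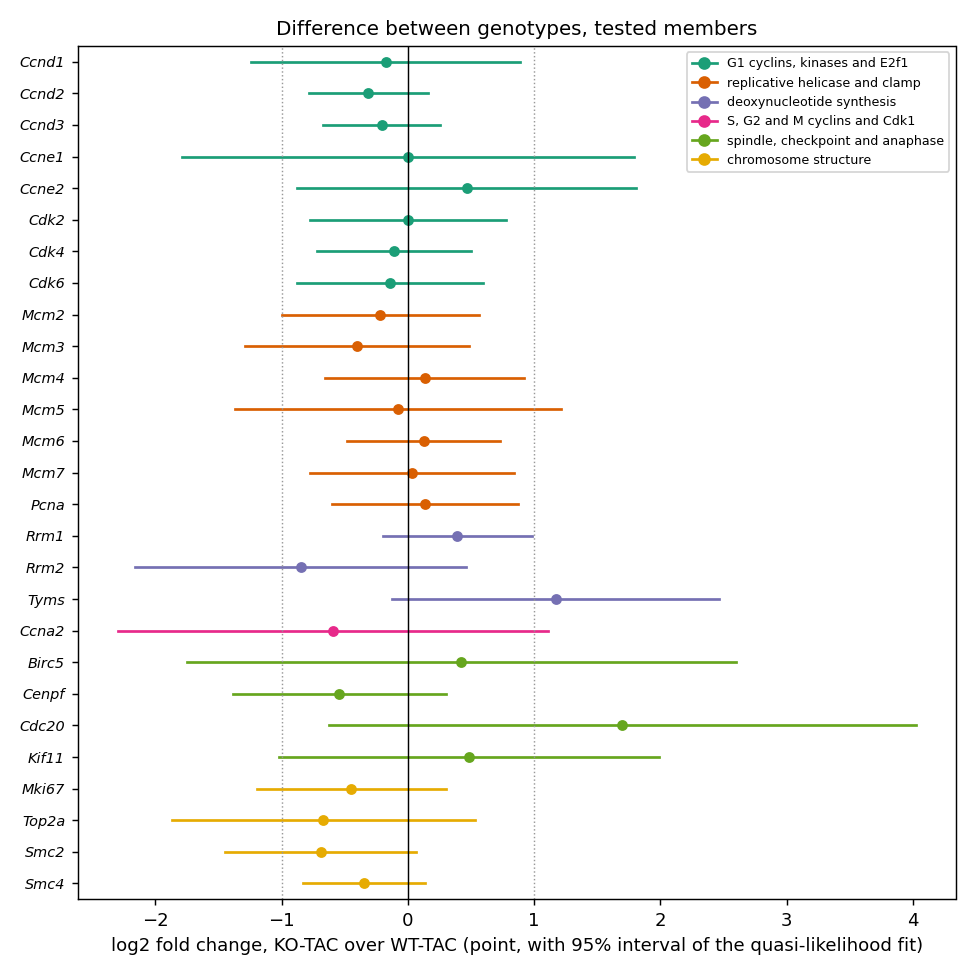
Log2 fold change of KO-TAC over WT-TAC for the 27 tested members, coloured by role, with 95% intervals from edgeR's quasi-likelihood fit; dotted lines mark a 2-fold change in either direction. Every interval contains 0, and the widest belong to Birc5 and Cdc20, which had 67 and 65 counts over all libraries.

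The cyclins of S phase, G2 and mitosis and their kinase Cdk1 were close to the limit of detection. The 4 genes together had 44, 40 and 25 counts in WT-TAC and 35, 28 and 13 in KO-TAC. Ccna2, the 1 of them that was tested, had 17, 23 and 6 counts against 16, 7 and 6, a log2 fold change of −0.59 ± 0.79. Ccnb1 had 8, 4 and 6 against 4, 7 and 0, Ccnb2 11, 0 and 8 against 7, 1 and 6, and Cdk1 8, 13 and 5 against 8, 13 and 1. Pooled over libraries, the ratio of KO-TAC to WT-TAC counts was 0.626 for Ccnb1 (95% exact counting interval 0.267 to 1.40), 0.755 for Ccnb2 (0.350 to 1.59) and 0.867 for Cdk1 (0.468 to 1.59). These intervals cover counting error only and leave out the spread between libraries, and a difference within them was not detectable at this depth. Ccnb1 also has processed copies, the nearest 99.2% identical over 1287 bases.

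Genes of the spindle, its checkpoint and the exit from mitosis were as sparse, with 1 exception. Bub1, a checkpoint kinase, had 7, 7 and 0 counts in WT-TAC and 1, 2 and 13 in KO-TAC. Aurkb, the kinase of the chromosomal passenger complex, had 0, 15 and 0 against 5, 7 and 0, and Plk1, a kinase of mitotic entry and spindle assembly, 4, 14 and 1 against 5, 1 and 4. Bub1 was highest in KO-TAC replicate 3, and Aurkb and Plk1 were highest in WT-TAC replicate 2. The pooled count ratios had intervals of 0.535 to 2.59 for Bub1, 0.350 to 1.88 for Aurkb and 0.224 to 1.22 for Plk1.

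Birc5, or survivin, which works with Aurkb, had 14, 9 and 5 counts in WT-TAC and 18, 21 and 0 in KO-TAC. Cdc20 had 0, 15 and 1 against 15, 29 and 5, and Kif11, the motor that separates spindle poles, 3, 35 and 21 against 20, 28 and 28. Birc5 was at 0 in KO-TAC replicate 3 and highest in the other KO-TAC libraries, and its log2 fold change of 0.42 ± 1.01 was −0.47 in limma-voom. For Cdc20 the log2 fold change of 1.70 ± 1.08 (unadjusted p = 0.139, adjusted p = 0.999 in edgeR) was 4.60 without WT-TAC replicate 2, the library with 15 of the 16 WT-TAC counts, and 1.15 without KO-TAC replicate 2.

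Cenpf (chr1:189640606-189688086, minus strand), a large kinetochore protein, was the exception, with 135, 503 and 263 counts in WT-TAC and 124, 172 and 273 in KO-TAC. WT-TAC replicates 2 and 3 and KO-TAC replicate 3 were the high libraries, and the other 3 lay at 18.1 to 21.2 CPM. The log2 fold change was −0.54 ± 0.38 (edgeR adjusted p = 0.999), −0.12 when WT-TAC replicate 2 was dropped and −0.98 when KO-TAC replicate 3 was. KO-TAC replicate 3, at 40.3 CPM of Cenpf, had the lowest level of Mki67 and Top2a of all libraries. Per kilobase Cenpf stood at 2.48 ± 1.19 CPM in WT-TAC against 0.201 ± 0.0949 for Ccnb1.

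**Figure D3:**
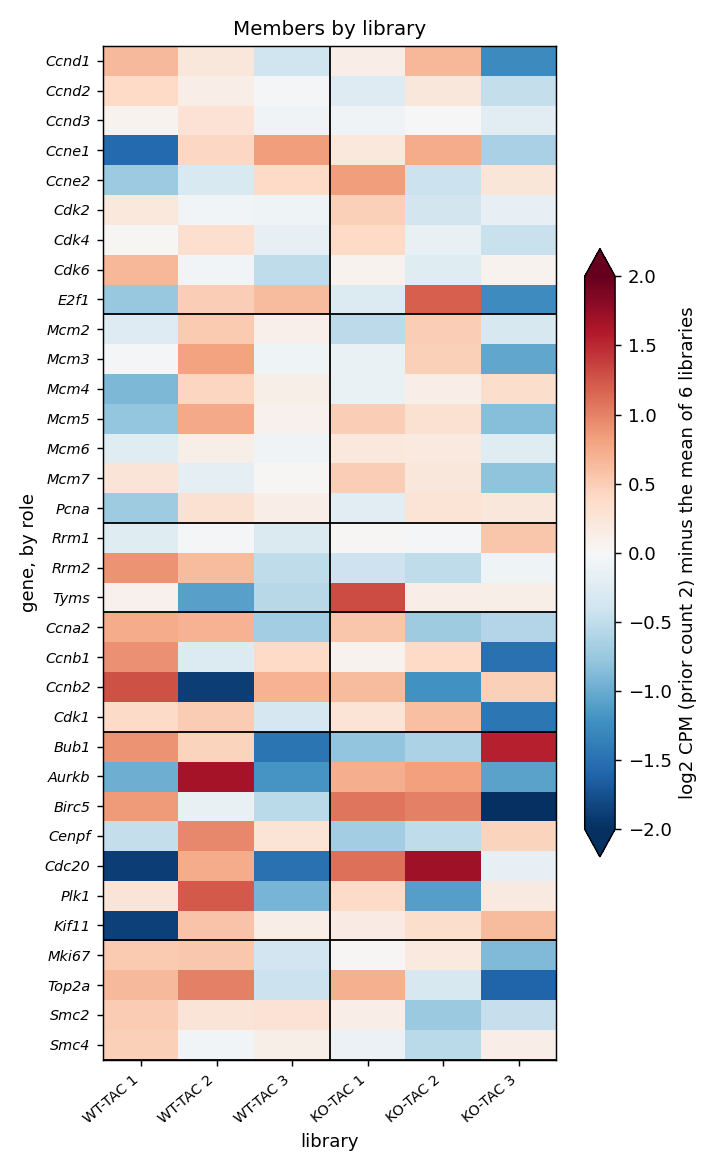
Level of each member in each library as log2 CPM (prior count of 2) minus the mean of that member over the 6 libraries, with red above and blue below the mean; horizontal lines separate the roles and the vertical line the genotypes. KO-TAC replicate 3 is lowest for 14 of 34 members and WT-TAC replicate 2 highest for 11, beside 20.3% and 12.7% of all tested genes in CPM. Bub1, Kif11 and Rrm1 are highest in KO-TAC replicate 3.

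Genes of chromosome structure had the lower KO-TAC means throughout. Mki67, the standard marker of cells in cycle, which coats mitotic chromosomes, had 143, 199 and 87 counts in WT-TAC and 108, 147 and 56 in KO-TAC. Top2a, the topoisomerase that untangles replicated DNA, had 69, 123 and 37 against 78, 45 and 14. Replicate 3 was the lowest library of both genes in each genotype, and the genotypes overlapped. Log2 fold changes were −0.45 ± 0.35 for Mki67 and −0.67 ± 0.55 for Top2a, and edgeR gave both an adjusted p of 0.999. Mki67 was at −0.69 when WT-TAC replicate 3 was dropped and at −0.18 when KO-TAC replicate 3 was, and Top2a was at −1.39 and −0.26 when KO-TAC replicates 1 and 3 were dropped in turn.

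Smc2 and Smc4 encode the core pair of condensin, the complex that compacts chromosomes. Smc2 (chr4:52439243-52488260, plus strand) had 79, 91 and 78 counts in WT-TAC and 65, 42 and 42 in KO-TAC, or 11.2 ± 1.08 and 6.94 ± 2.29 CPM (SD, n = 3). All KO-TAC libraries lay below all WT-TAC libraries, the 1 tested member of which this was true, where 3.72% of all tested genes showed it. Its log2 fold change of −0.69 ± 0.35 had the smallest p of all members, 0.0698 unadjusted and 0.999 adjusted in edgeR, and its interval of 0.367 to 1.05 in fold ends just past 1. Smc4 had 424, 402 and 382 counts against 302, 272 and 357, a log2 fold change of −0.35 ± 0.23, with KO-TAC replicate 3 above WT-TAC replicates 2 and 3 in CPM. All 4 genes of the group were lower in KO-TAC, with a median of −0.56, and the 4 were measured in the same libraries.

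The promoters of the mitotic members are shown for the cell cycle homology region, CHR, a short element of genes expressed in G2 and M. TTTGAA on either strand was found in 2 of 3 matched promoters of the group of S, G2 and M cyclins with Cdk1, in 4 of 6 of the spindle group and 3 of 3 of the chromosome group, but in 1 of 6 helicase and clamp genes and 0 of 6 G1 genes, against 20.2% of all genes with a promoter. Another form of the element that was searched for, TTCGAA, was found in 3 of 27 members, Bub1, Top2a and the helicase gene Mcm7. Of all genes with a promoter, 1.80% had it. CCAAT on either strand was found in 21 of 27 members and 41.1% of all genes. TTTGAA is in capitals, on the gene's strand, in windows at chr10:69352967-69352994 for Cdk1, chr9:70421534-70421561 for Ccnb2, chr4:118437345-118437372 for Cdc20, chr7:122159454-122159481 for Plk1, chr1:189688068-189688095 for Cenpf and chr7:135716461-135716488 for Mki67. Cdk1, Ccnb2 and Mki67 each have another TTTGAA, not shown, whose first base lies at −15, −167 and −116 from the gene's start. The Cdk1 match shown begins at −71. A match is a description and not a proven site.
Cdk1: tgattggctccTTTGAAcgtctacgtgc
Ccnb2: gcggcgcggtaTTTGAAtcgcggaccgg
Cdc20: gacagttgggtTTTGAAggagccaatga
Plk1: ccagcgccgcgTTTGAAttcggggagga
Cenpf: gcggcgggcagTTTGAAtcgctcgtgct
Mki67: cgccgttttggTTTGAAtcgggcgggct

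Other genes of the pathway, from 5 lists chosen with earlier results of these data known, gave 0 called genes in either direction in edgeR. At an unadjusted p under 0.05 in edgeR they held Chaf1a, 1 of 34 tested genes of its list, and Cdkn1a, 1 of 21. The lists of mitosis, of condensin and cohesin and of p53, with 30, 11 and 14 tested genes, held 0. Over all tested genes the share was 2.93%. The list of mitosis and cytokinesis, with genes such as Foxm1 and Cenpe, had 30 of 51 genes tested, of which 26 were lower in KO-TAC and 4 higher, with a median of −0.53. That median was −0.25, with 22 of 30 genes lower, when WT-TAC replicate 1 was dropped and −0.68 when WT-TAC replicate 3 was, and it was −0.19 over the 7 genes that passed a minimum count of 30. Cenpe, a kinetochore motor, had 64, 66 and 23 counts in WT-TAC and 24, 31 and 16 in KO-TAC (log2 fold change −1.10 ± 0.51, unadjusted p = 0.0516), and Foxm1, a transcription factor of mitotic genes, 29, 47 and 13 against 16, 21 and 7 (−0.98 ± 0.65). Mad2l1 and Bub3, checkpoint proteins, had the smallest p among those higher, at 0.50 ± 0.77 and 0.17 ± 0.33. The 4 tested spindle members had a median of 0.45, opposite in sign to the list, but −0.54 at the minimum count of 30, which Cenpf alone passed. Chromosome structure members, at −0.56, and Ccna2, at −0.59, had the sign of the list.

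The list of origin licensing and replication forks, next to the helicase in role, had 34 of 43 genes tested, 21 lower and 13 higher, with a median of −0.090. Chaf1a, a subunit of the chaperone that loads histones behind the fork, had 77, 91 and 46 counts in WT-TAC and 20, 56 and 24 in KO-TAC. Its log2 fold change was −1.11 ± 0.44 (unadjusted p = 0.0254, adjusted p = 0.999 in edgeR), with KO-TAC replicate 2 above WT-TAC replicate 3. Orc6, of the origin recognition complex, had 53, 55 and 39 against 22, 41 and 19 (unadjusted p = 0.0833, adjusted p = 0.999 in edgeR). Its KO-TAC libraries all lay below its WT-TAC libraries in CPM, as was true of 3.72% of all tested genes. Gmnn, the inhibitor of relicensing, and Pold3, a polymerase subunit, had log2 fold changes of 0.40 ± 0.25 and 0.38 ± 0.31.

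Inhibitors and brakes of the cycle showed no called gene either. Of CDK inhibitors, pocket proteins and E2F partners 21 of 23 genes were tested, 14 lower and 7 higher, with a median of −0.076. That median had no stable sign: it was 0.027 with 10 genes lower in limma-voom, 0.0087 and 0.059 when WT-TAC replicates 1 and 3 were dropped in turn, −0.33 when WT-TAC replicate 2 was and −0.23 when KO-TAC replicate 3 was. Cdkn1a, the p21 inhibitor, had 70, 119 and 35 counts in WT-TAC and 104, 109 and 197 in KO-TAC, a log2 fold change of 0.96 ± 0.41 with an unadjusted p of 0.0345 and an adjusted p of 0.999 in edgeR. WT-TAC replicate 2 lay within the KO-TAC values, and the 197 counts came from KO-TAC replicate 3, the library assigned by its index. That library had the lowest Mki67 and Top2a of all libraries but the highest Bub1, Kif11 and Rrm1, and a link to Cdkn1a was not tested. Cdkn1b, or p27, had 0.37 ± 0.24, Cdkn2c, or p18, −0.71 ± 0.41 and E2f2 −1.37 ± 0.89, the last with 68 of its 92 WT-TAC counts in WT-TAC replicate 1.

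Of the 14 genes of p53 and growth arrest 9 were lower and 5 higher, with a median of −0.036, and Bax, Gadd45g, Btg2 and Ccng1 had log2 fold changes of 0.30 ± 0.34, 0.25 ± 0.47, −0.41 ± 0.24 and −0.27 ± 0.25. Condensin and cohesin genes other than the members, 11 of 12 tested, had 7 lower and 4 higher and a median of −0.099, which was 0.027 with 5 lower when KO-TAC replicate 1 was dropped. Ncaph2 (0.10 ± 0.18), Ncaph (0.28 ± 0.75), Rad21 (−0.17 ± 0.19) and Stag2 (−0.20 ± 0.23) had the smallest p values of that list in each direction. Values in the list ran from −0.20 to 0.28, beside −0.69 for Smc2, and the difference between them was not tested.

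**Figure D4:**
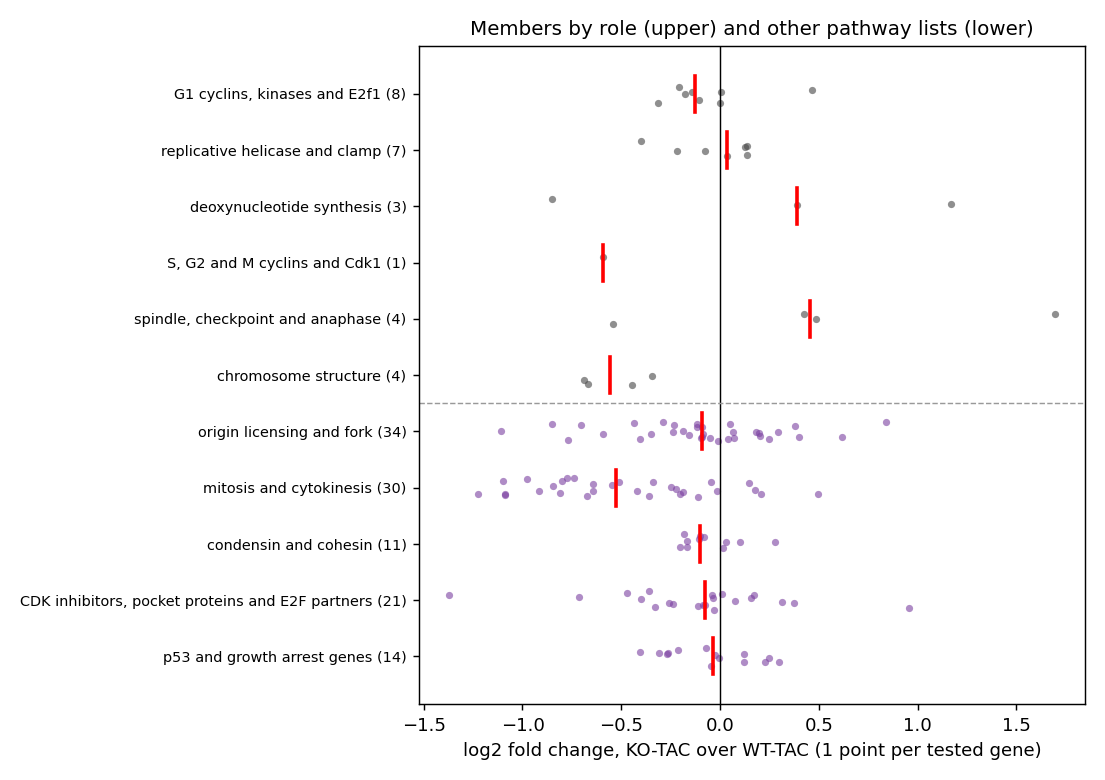
Log2 fold change of KO-TAC over WT-TAC for each tested gene of the 6 role groups of members (grey, above the dashed line) and the 5 other pathway lists (purple), with the number of tested genes in brackets, medians in red and the median of all tested genes as the vertical line. The mitosis and cytokinesis list has its median at −0.53 with 26 of 30 genes to the left, where 49.8% of all tested genes were lower. The other pathway lists have medians from −0.10 to −0.04.

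**Figure D5:**
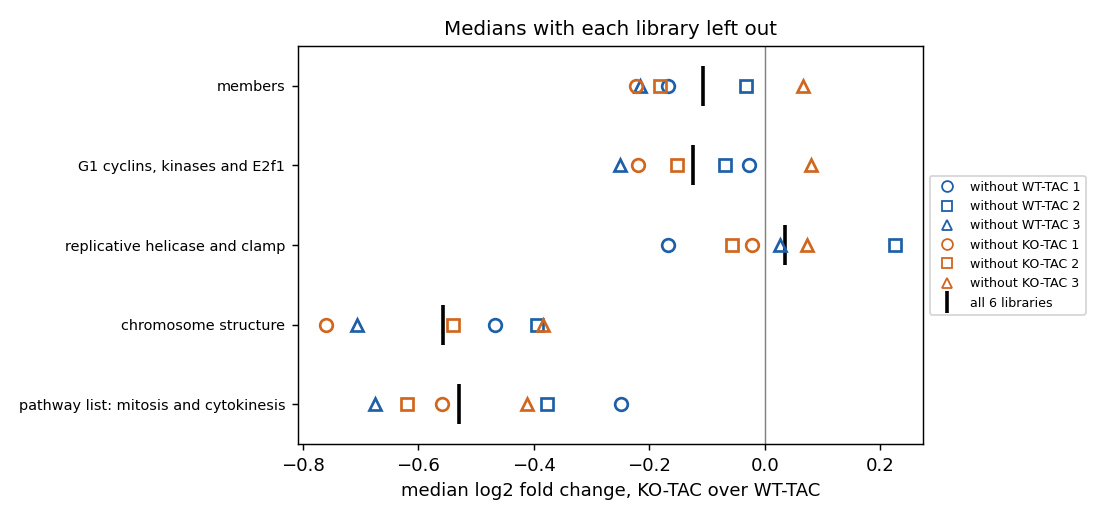
Median log2 fold change of the tested members, of 3 role groups and of the mitosis and cytokinesis list with all 6 libraries (black bar) and with each library left out (symbols). The medians of all members and of the G1 group cross 0 without KO-TAC replicate 3. That of the helicase and clamp group crosses 0 without WT-TAC replicate 1, KO-TAC replicate 1 or KO-TAC replicate 2. The medians of chromosome structure and of the mitosis list stay below 0 in each case.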

How the data were processed

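Raw read counts per gene symbol in 6 heart libraries were deposited by the authors, whole numbers with no normalization. HISAT2 2.1.0, Subread, FastQC and edgeR appear in the submitters' processing notes, as do builds GRCm38 and mm10, without roles. Samples were grouped by title, and the labels do not state the animals behind a sample, so a p-value reflects only sample-to-sample spread, which may be technical. Totals were 6411538 to 8571737 counts, and no 2 libraries agreed within sampling noise (median chi-square of at least 3.02 between libraries, against 0.455 for noise).

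The test was that of edgeR 4.0.16 under R 4.3.3 (filterByExpr with a minimum count of 10, TMM, robust quasi-likelihood fit, no covariate), and p-values were adjusted over all 12487 tested genes. Standard errors are absolute log2 fold changes divided by the root of F, and 95% intervals use the t distribution with the test's degrees of freedom. The test was also run on simulated counts with known changes. That check required only a median fitted log2 fold change near the true one and set no limit on false or missed calls. Counting intervals are exact binomial (Clopper-Pearson) on pooled counts. The members and lists were chosen with earlier results of these data known. All members are named, and of each pathway list the 2 genes with the smallest p in each direction. Positions and exons are from GENCODE M21, and copies were found with blastn 2.17.0 at 95% identity or more over at least 200 bases. Alternatives were other scalings, filters and tools (limma 3.58.1, DESeq2 1.42.0), a replicate block and each library left out. Medians of pathway lists under these were added after seeing the data.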

Additional observations from a re-analysis of the deposited data

How the results depend on the processing

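The count of members called was 0 under all 14 alternatives, with at most 2 members at an unadjusted p under 0.05 in any of them. The count of all genes called, 3, was 21 with no low-count filter, 17 in DESeq2, 0 in limma-voom (376 at an unadjusted p under 0.05) and 6 with the replicate block, and 0 to 7 with 1 library left out. The 0 came from dropping WT-TAC replicate 1 (437 had an unadjusted p under 0.05), the 7 from dropping KO-TAC replicate 2, and dropping KO-TAC replicate 3 gave 6. Same-numbered libraries deviated together with correlations of 0.13, 0.011 and 0.26, and 3 of 6 libraries correlated best with their own number, so the number was not taken to pair samples. Signs of uncalled members changed for Ccne1 (0.0084 with upper-quartile scaling, 0.31 in limma-voom, 0.20 with the replicate block), Cdk2 (−0.0015 with RLE, −0.010 with no scaling factor, −0.047 in limma-voom, −0.037 with the block), Mcm7 (−0.026 in limma-voom, −0.040 with the block) and Birc5 (−0.47 in limma-voom). Over fits lacking 1 library each, values spanned −0.63 to 0.20 for Ccnd1, −0.51 to 0.54 for Ccne1, −0.30 to 0.17 for Cdk2, −0.37 to 0.067 for Cdk4, −0.38 to 0.23 for Cdk6, −0.60 to 0.018 for Mcm2, −0.17 to 0.44 for Mcm4, −0.41 to 0.40 for Mcm5, −0.24 to 0.34 for Mcm7 and −0.12 to 0.35 for Pcna. The cause was not tested. The other 16 tested members kept their sign wherever they were tested. The spindle median of 0.45 was −0.54 with a minimum count of 30, where Cenpf was its only gene, and the G1 median of −0.13 was 0.081 without KO-TAC replicate 3. The helicase and clamp median of 0.034 was −0.026 in limma-voom, −0.040 with the block and −0.17 without WT-TAC replicate 1. It was −0.022 and −0.057 without KO-TAC replicates 1 and 2 in turn. Low counts limit the mitotic genes most, and 7 members, E2f1 among them, were not tested.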

Other observations

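Members of the list host microRNA genes in their transcription units. Smc4 holds Mir15b (chr3:69009772-69009835) and Mir16-2 (chr3:69009902-69009996) in introns, and Mcm7 holds Mir106b (chr5:138165737-138165818), Mir93 (chr5:138165523-138165610) and Mir25 (chr5:138165321-138165404), of which Mir93 and Mir25 overlap an annotated exon, all on the strand of their host (GRCm38). In the table Mir15b, Mir106b, Mir93 and Mir25 had 0 counts in every library, and Mir16-2 had 12 counts in WT-TAC replicate 2 and 0 in each of the others. Smc4 stood at 46.1 CPM in WT-TAC replicate 2, below the 66.7 and 52.3 of WT-TAC replicates 1 and 3.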
